A study of Homo sapiens with 2 samples.

Results

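To describe the cadherins of these cells, 10 genes were taken by symbol from the 18930 genes of the deposited table. They are the giant FAT cadherins FAT1 (NCBI Gene 2195), FAT2 (2196), FAT3 (120114) and FAT4 (79633), the Dachsous cadherin DCHS1 (8642), the seven-pass cadherins CELSR1 (9620), CELSR2 (1952) and CELSR3 (1951), and the classical cadherins CDH1 (999) and CDH2 (1000). All 10 were listed with counts, and all 10 had the 10 reads over both libraries that were asked of a gene before it entered the comparison. The set was chosen by the CPM values of the libraries, around FAT1 with its difference already known, so the values below describe these genes and no test was made on them.

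Bulk RNA sequencing of A375, a human melanoma cell line, gave 1 library labelled DR and 1 library labelled WT. DR stands for cells made resistant to dacarbazine (DTIC), a drug that alkylates DNA, and WT for the wild-type control. The labels give 105 days of DTIC, spelled DITC there, for both libraries, the WT one included, whereas the study describes WT cells as its control. Each column of counts was tied to its sample by the sample's description, and both descriptions differ in 1 punctuation mark, so every direction below rests on that match. The deposited values were estimated reads per gene, with totals of 54878355 in the DR-labelled and 35294670 in the WT-labelled library, and levels are given as CPM, reads per 1000000 after TMM scaling of the library sizes. One read was worth 0.0180 CPM in the DR-labelled and 0.0287 CPM in the WT-labelled library. With 1 library per label there was no replicate check, and intervals are exact 95% intervals that cover read counting alone.

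The levels of cell type markers went against the labelled cell type in both libraries. Of 15 melanocytic markers with counts, 2 were more abundant, in each library, than the median gene of the 16210 tested, and the summed level of the list was 128 CPM in the DR-labelled and 111 CPM in the WT-labelled library. The 2 were MITF, a melanocytic transcription factor (34.6 and 34.7 CPM), and RAB27A (78.9 and 63.5 CPM). SOX10, another transcription factor of the list, had 3 and 0 reads. Of 16 plasma cell markers, 12 were above that median gene in each library, with summed levels of 5443 and 6361 CPM, of which JCHAIN made up 2012 and 2917 CPM. Their median log2 fold change was 0.33 on the scale of log2(CPM + 0.5), DR-labelled over WT-labelled. Of the 16, 6 were at least 2-fold higher in the DR-labelled library, against 7.48% of all genes tested. TNFRSF13B (1.57) and CD79B (1.25) were the most among them. The number lower past 2-fold was 0, against 4.16% of all genes tested. Abundant markers such as SDC1 (-0.62), JCHAIN (-0.54), IRF4 (-0.47) and XBP1 (-0.37) were lower in the DR-labelled library by less than 2-fold. Levels of plasma cell markers therefore differed between the libraries too, in both directions, and their part in the cadherin differences was not tested. In addition, the names of both count columns begin with MM and neither resembles the title of the WT sample. Whether the table holds the A375 libraries of the study could not be settled from these files, so the libraries are called by their labels only.

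Cadherins are calcium-dependent adhesion proteins with extracellular cadherin repeats. Classical cadherins such as E-cadherin (CDH1) and N-cadherin (CDH2) bind the same cadherin on the next cell and are held to actin through catenins, and melanocytes adhere to keratinocytes through E-cadherin, whereas many melanomas carry N-cadherin instead. FAT and Dachsous proteins are very large cadherins that bind each other across cell borders in heterophilic pairs and regulate tissue growth and planar polarity, the alignment of cells within a sheet. CELSR proteins are the vertebrate homologues of Flamingo, which join a cadherin ectodomain to a seven-pass membrane domain and act in planar polarity with Frizzled and Vangl proteins.

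The sequences in front of the transcription start were compared for the members the values turn on. RefSeq (GRCh38.p14) gave promoter windows for 5 of the 10 members, of which FAT1 and CDH2 had 2 start sites each. The 250 bases before the start are shown for the upstream site of FAT1 and of CDH2 and for CELSR3 and FAT2, because these members had the greatest differences or, for FAT2, almost no reads, with CG dinucleotides in capitals.
FAT1, chr4:186726697-186726946, minus strand: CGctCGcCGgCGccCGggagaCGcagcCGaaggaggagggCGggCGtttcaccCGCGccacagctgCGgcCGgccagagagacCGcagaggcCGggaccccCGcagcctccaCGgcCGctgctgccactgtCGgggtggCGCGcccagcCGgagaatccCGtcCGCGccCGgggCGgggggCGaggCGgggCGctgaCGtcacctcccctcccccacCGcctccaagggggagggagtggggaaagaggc
CDH2, chr18:28177131-28177380, minus strand: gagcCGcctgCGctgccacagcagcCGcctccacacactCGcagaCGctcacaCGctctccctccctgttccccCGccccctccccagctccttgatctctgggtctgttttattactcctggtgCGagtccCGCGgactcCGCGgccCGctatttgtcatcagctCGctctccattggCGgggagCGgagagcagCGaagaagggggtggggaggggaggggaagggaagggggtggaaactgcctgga
CELSR3, chr3:48662887-48663136, minus strand: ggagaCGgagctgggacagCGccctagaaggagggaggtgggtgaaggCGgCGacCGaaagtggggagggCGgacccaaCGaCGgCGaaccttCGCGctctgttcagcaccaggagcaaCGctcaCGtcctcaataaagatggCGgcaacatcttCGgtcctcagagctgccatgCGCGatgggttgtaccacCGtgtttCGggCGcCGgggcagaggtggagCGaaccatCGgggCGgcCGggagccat
FAT2, chr5:151591332-151591581, minus strand: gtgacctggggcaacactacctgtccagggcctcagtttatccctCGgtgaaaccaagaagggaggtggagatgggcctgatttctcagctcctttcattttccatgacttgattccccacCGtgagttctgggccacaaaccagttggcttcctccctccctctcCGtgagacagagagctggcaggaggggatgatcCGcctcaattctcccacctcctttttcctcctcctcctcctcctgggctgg
The FAT1 window held 32 CG dinucleotides, a number reached by 9.5% of the 35116 windows of this length in the table, whose median was 11. The second FAT1 start, at chr4:186723857-186724106, also had 32. CELSR3 had 25, CELSR2 23 and the upstream CDH2 window 17, numbers reached by 21.6%, 25.8% and 39.0% of all windows. By contrast, FAT2 and the downstream CDH2 window had 4 each. Windows with more CG than the median therefore stood in front of members that were higher in either library, FAT1 and CELSR3 among them. The letters TGACGTCA, the cyclic AMP response element, occurred once in the FAT1 window shown and in no other member window, against 1.65% of all windows. The E-box CAGGTG, which is CACCTG on the other strand and is bound by the ZEB and SNAI repressors, was found in 0 of the 7 member windows and in 17.5% of all windows. CDH1, FAT3, FAT4, DCHS1 and CELSR1 had no window here and were not searched. These are matches of letters on the reference and were not measured in these cells.

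Of the 10 members, 3 were at least 2-fold higher in the DR-labelled library (FAT1, CDH1 and CELSR2), against 7.48% of all genes tested. Another 3 were at least 2-fold lower (CDH2, CELSR3 and FAT4), against 4.16% of all genes tested. The remaining 4 (CELSR1, FAT2, FAT3 and DCHS1) lay within 2-fold. For FAT2 this holds on the log2(CPM + 0.5) scale, whereas the plain ratio of its CPM values was 2.04. Since the contrast had been used to choose the set, these counts are a description. The median log2 fold change was 0.17 for the members and 0.01 for all genes tested, and the members ranged from -2.34 to 6.18. Fold changes throughout are on the log2(CPM + 0.5) scale. In bulk RNA, fewer cells expressing a gene and less of its RNA per cell cannot be told apart.

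**Figure D1:**
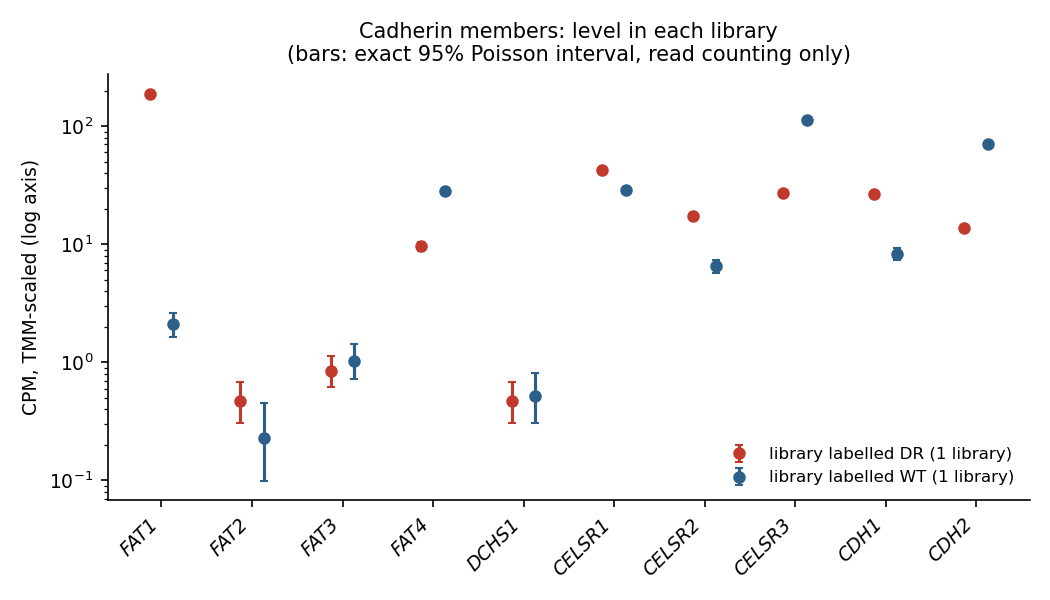
Level of each member (CPM after TMM scaling, log axis) in the DR-labelled library (red) and the WT-labelled library (blue), 1 library each, with exact 95% Poisson intervals for read counting. FAT1 lay at 187 and 2.09 CPM, CDH2 and CELSR3 were higher in the WT-labelled library, and the intervals of FAT2, FAT3 and DCHS1 overlapped between libraries.

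FAT1, a giant cadherin with roles in cell polarity, actin organisation and growth control, showed the greatest difference of the set. It had 10416 reads (187 CPM, interval 184 to 191) in the DR-labelled library and 73 reads (2.09 CPM, interval 1.64 to 2.63) in the WT-labelled library. This was a log2 fold change of 6.18 (interval 5.91 to 6.46), rank 2 of 16210 genes from the top, and a ratio of 89.5 between the CPM values. Ordered by level per length, FAT1 stood at percentile 64.4 of the genes tested in the DR-labelled library and at percentile 10.3 in the other. FAT1 transcripts were thus above the middle of the transcriptome in 1 library and near its bottom in the other.

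FAT4, which in mammals pairs with DCHS1 as Fat-Dachsous receptor and ligand, differed in the opposite direction. It had 534 reads (9.61 CPM) in the DR-labelled and 990 reads (28.4 CPM) in the WT-labelled library, a log2 fold change of -1.51 (interval -1.66 to -1.37). FAT2 and FAT3, better known from the cerebellum and from developing neurons, were close to absent from both. FAT2 had 26 and 8 reads (0.468 and 0.229 CPM), and FAT3 had 47 and 36 reads (0.846 and 1.03 CPM). The intervals of their log2 fold changes, -0.07 to 0.79 and -0.62 to 0.24, included 0. Differences in these genes were therefore not detectable at this depth. Adding 0.5 CPM shrinks the intervals of genes this low, so they do not bound the plain ratio of CPM values.

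DCHS1, the Dachsous ligand of FAT4, was barely present as well. It had 26 reads (0.468 CPM) in the DR-labelled and 18 reads (0.516 CPM) in the WT-labelled library, with a log2 fold change of -0.07 (interval -0.53 to 0.38). Per kilobase of gene length, FAT4 reached 1.74 reads per 1000000 in the WT-labelled library and DCHS1 0.0480. FJX1, the human homologue of four-jointed, a Golgi kinase that modifies cadherin repeats of Fat and Dachsous in flies, had 230 and 298 reads and a log2 fold change of -0.96, just under the 2-fold limit. It was named after its value was seen.

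The seven-pass cadherins differed among themselves. CELSR3, known for axon guidance, had 1520 reads (27.4 CPM) in the DR-labelled and 3916 reads (112 CPM) in the WT-labelled library, a log2 fold change of -2.02 (interval -2.10 to -1.93). CELSR2, known for the polarity and cilia of ependymal cells, had 955 reads (17.2 CPM) and 226 reads (6.48 CPM), a log2 fold change of 1.34 (interval 1.14 to 1.54). CELSR1, the planar polarity cadherin of epidermis and neural tube, had 2374 reads (42.7 CPM) and 1003 reads (28.8 CPM), a log2 fold change of 0.56 (interval 0.46 to 0.67). Thus CELSR1 and CELSR2 were higher in the DR-labelled library and CELSR3 in the WT-labelled library, and the difference of CELSR1 stayed under 2-fold.

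The classical cadherins stood in opposite order in the libraries. CDH1 had 1476 reads (26.6 CPM, interval 25.2 to 28.0) in the DR-labelled and 291 reads (8.35 CPM, interval 7.42 to 9.36) in the WT-labelled library, a log2 fold change of 1.61 (interval 1.44 to 1.79). CDH2 had 757 reads (13.6 CPM, interval 12.7 to 14.6) and 2483 reads (71.2 CPM, interval 68.5 to 74.1), a log2 fold change of -2.34 (interval -2.46 to -2.23). Both cadherins had reads in both libraries, with the higher level of CDH1 in the DR-labelled library and that of CDH2 in the WT-labelled library. CDH1 and FAT3 were the members with fractional estimated counts, and how such reads were divided between genes is not given in the sources used here.

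**Figure D2:**
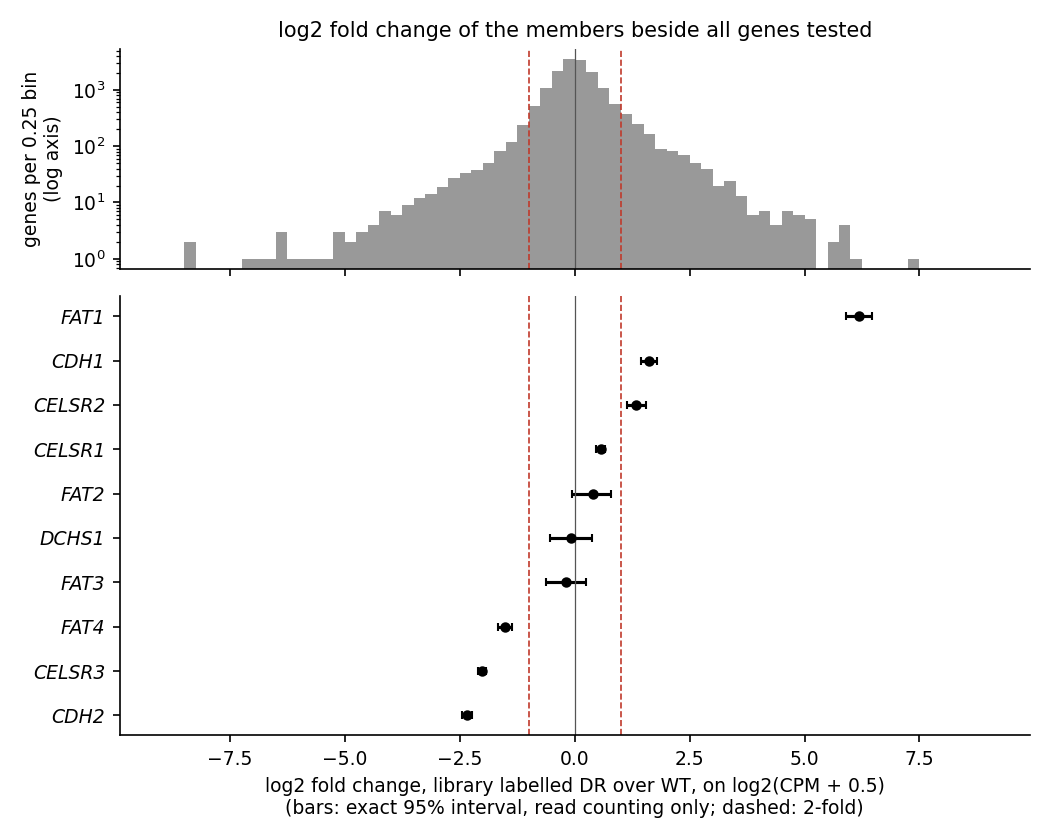
Upper panel, number of genes per 0.25 bin of log2 fold change (log axis) for the 16210 genes tested. Lower panel, log2 fold change of each member on log2(CPM + 0.5), DR-labelled over WT-labelled, with exact 95% intervals for read counting and dashed lines at 2-fold. FAT1 at 6.18 lies in the upper tail, and CDH2, CELSR3 and FAT4 lie below the lower line.

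Markers of other cells were set beside the classical cadherins, since CDH1 marks epithelia and CDH2 mesenchyme. Of 10 epithelial markers tested, 2 were at least 2-fold higher in the DR-labelled library, against 7.48% of all genes tested. The number lower past 2-fold was 0, against 4.16% of all genes tested. Summed levels were 364 and 243 CPM over the 12 with counts, and the median log2 fold change was 0.58. The 2 were CLDN7 (1.43) and CDH3 (2.36), and CDH3 is itself a classical cadherin and is counted again below. Without CDH3, a choice made after seeing the data, 1 of 9 tested was higher and 0 lower, with summed levels of 338 and 238 CPM. KRT5 went the other way, with 3.47 and 7.43 CPM (-0.997), just under the 2-fold limit. With 0.1 CPM added in place of 0.5, 1 marker was lower past 2-fold. KRT19 had 0 and 2 reads and GRHL2 1 and 0 reads. EPCAM had 65.8 and 38.0 CPM, and KRT18 had 164 and 114 CPM. The part of these markers in the CDH1 difference was not tested. The fibroblast list summed to 14.4 CPM in the DR-labelled and 3.27 CPM in the WT-labelled library over its 7 genes with counts. COL1A1 made up 10.3 and 3.13 CPM of these sums, and PDGFRB 3.76 and 0.0287 CPM. The part of this list in the CDH2 difference was not tested. Of 3 genes of that list tested, 2 were at least 2-fold higher in the DR-labelled library and 0 lower. The shares over all genes tested were 7.48% higher and 4.16% lower. The 2 were COL1A1 with 572 and 109 reads (1.57) and PDGFRB with 209 and 1 reads. By contrast, COL1A2 had 1 and 0 reads and COL3A1 0 and 1. FGFR3 and NSD2, both known targets of the t(4;14) translocation in myeloma, were higher in the same library as CDH2. FGFR3 had 3.37 CPM in the DR-labelled and 1302 CPM in the WT-labelled library, and NSD2 had 248 and 923 CPM. Their part in the cadherin differences was not tested.

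Levels of different genes were compared per length, as reads per kilobase of the deposited gene length per 1000000 TMM-scaled reads (RPKM). In each of the 3 families with more than 1 member, the most abundant gene was not the same in both libraries. Within the FAT family, FAT1 made up 94.9% of the summed RPKM in the DR-labelled library and 7.17% in the WT-labelled library, where FAT4 made up 88.8%. FAT4 made up 4.44% in the DR-labelled library. The summed RPKM of the family was 13.2 and 1.95. Within the CELSR family, CELSR1 led in the DR-labelled library with 48.9% of the summed RPKM, and CELSR3 led in the other with 74.9%, against 20.2% for CELSR1 in the WT-labelled and 29.8% for CELSR3 in the DR-labelled library. CELSR2 made up 21.3% in the DR-labelled and 4.91% in the WT-labelled library, and the family summed to 7.67 and 12.5 RPKM. CDH1 had 1.55 times the RPKM of CDH2 in the DR-labelled library, whereas CDH2 had 10.7 times that of CDH1 in the WT-labelled library. Over all 10 members the summed RPKM was 29.7 and 34.2.

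**Figure D3:**
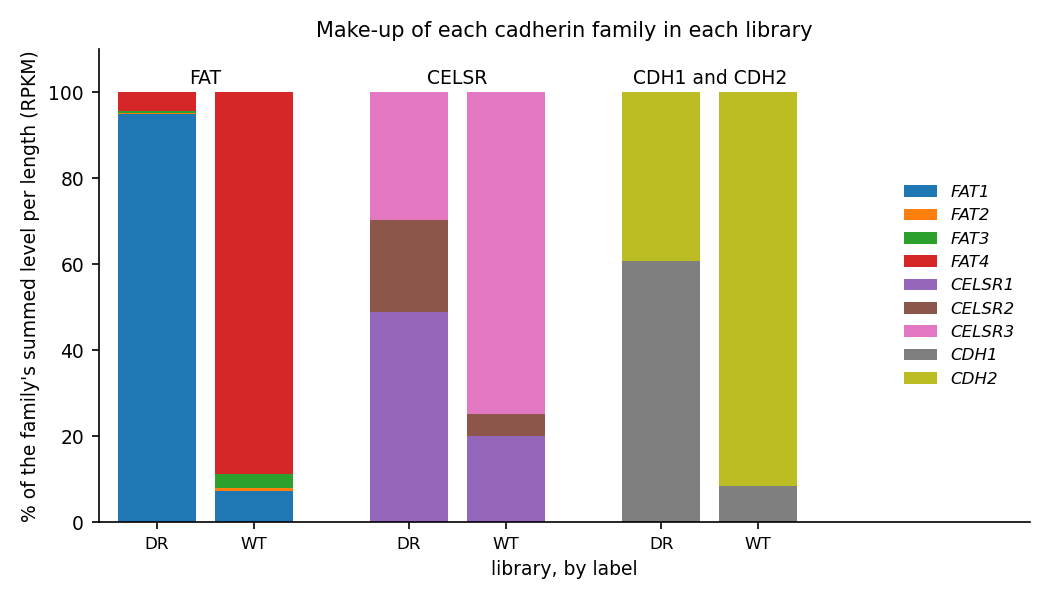
Share of each member in the summed RPKM of its family (bars in percent, starting at 0) in the DR-labelled and the WT-labelled library, 1 library each. FAT1 makes up 94.9% of the FAT bar in the DR-labelled library and FAT4 88.8% in the WT-labelled one, and CDH1 goes from 60.8% to 8.54% of the classical pair.

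Ordered by RPKM in the DR-labelled library, FAT1 came first (12.6), followed by CDH1 (5.35), CELSR1 (3.75), CDH2 (3.44), CELSR3 (2.28), CELSR2 (1.63) and FAT4 (0.587). FAT3, DCHS1 and FAT2 came last, at 0.0514, 0.0435 and 0.0338. The counting intervals of CELSR1 and CDH2 overlapped, as did those of the last 3 neighbours. In the WT-labelled library CDH2 came first (18.0), followed by CELSR3 (9.38), CELSR1 (2.53), FAT4 (1.74), CDH1 (1.68), CELSR2 (0.615) and FAT1 (0.140). The last places were again held by FAT3, DCHS1 and FAT2 (0.0628, 0.0480 and 0.0166). Here the intervals of FAT4 and CDH1 overlapped, and those of the last 3 neighbours did too. The median RPKM of all genes tested was 6.46 and 6.40, so that 1 member in the DR-labelled library (FAT1) and 2 in the WT-labelled library (CDH2 and CELSR3) lay above it.

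The genes most like FAT1 and CDH2 were sought among the 9860 genes whose mean CPM was 10 or more, by the difference in log2 fold change over 2 libraries. Nearest to FAT1 were NPNT (5.94), SLFN11 (5.87), SEMA4A (5.82), SASH3 (5.78) and PDLIM3 (5.67). The closest of them differed from FAT1 by 0.24 on the log2 scale, and all 5 lay below it. Nearest to CDH2 were TEX19 (-2.34), RAB15 (-2.33), TRAM1 (-2.31), IL1RAP (-2.31) and ST3GAL4 (-2.39), the closest at a difference of 0.0021. With 2 libraries, likeness is a match of 1 number.

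Other cadherins were examined next, in 4 lists of 49 genes, of which 45 had counts and 37 were tested. In all, 6 were at least 2-fold higher and 5 at least 2-fold lower in the DR-labelled library, with a median log2 fold change of 0.02. Over all genes tested, 7.48% were higher and 4.16% lower past 2-fold, and each count below is to be read beside these shares. Among 11 further classical cadherins tested, 3 were higher and 1 lower. CDH4 (R-cadherin) had 854 reads in the DR-labelled and 24 in the WT-labelled library, a log2 fold change of 3.74 (interval 3.37 to 4.09). CDH3 (P-cadherin), the sister gene of CDH1, had 1415 and 159 reads and a log2 fold change of 2.36 (interval 2.14 to 2.58). Both were higher in the same library as CDH1. CDH19, a cadherin of Schwann cell precursors, had 364 and 75 reads (1.41), and CDH9 had 16 and 127 reads (-2.39). The classical cadherin with the highest RPKM in this list was CDH24, chosen after its values were seen, with 10.2 and 10.6 RPKM and a log2 fold change of -0.05.

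Among 13 atypical and cadherin-related genes tested, 1 was higher and 2 were lower in the DR-labelled library (7.48% and 4.16% of all genes). DCHS2, the second Dachsous gene, had 80 and 170 reads and a log2 fold change of -1.47, and so was lower in the same library as FAT4. CDHR1, a photoreceptor cadherin, had 159 and 8 reads (2.20). Of 5 desmosomal cadherins tested, 0 were past 2-fold in either direction, and DSG2 was the most abundant with 183 and 165 CPM. DSG3 had 1.87 and 2.38 CPM. Of 8 non-clustered protocadherins tested, 2 were higher and 2 lower, among them PCDH18 (128 and 27 reads, 1.14) and PCDH9 (95 and 143 reads, -1.06). In these 3 lists the genes past 2-fold were scarce ones, with a mean over both libraries of at most 3.16 CPM.

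**Figure D4:**
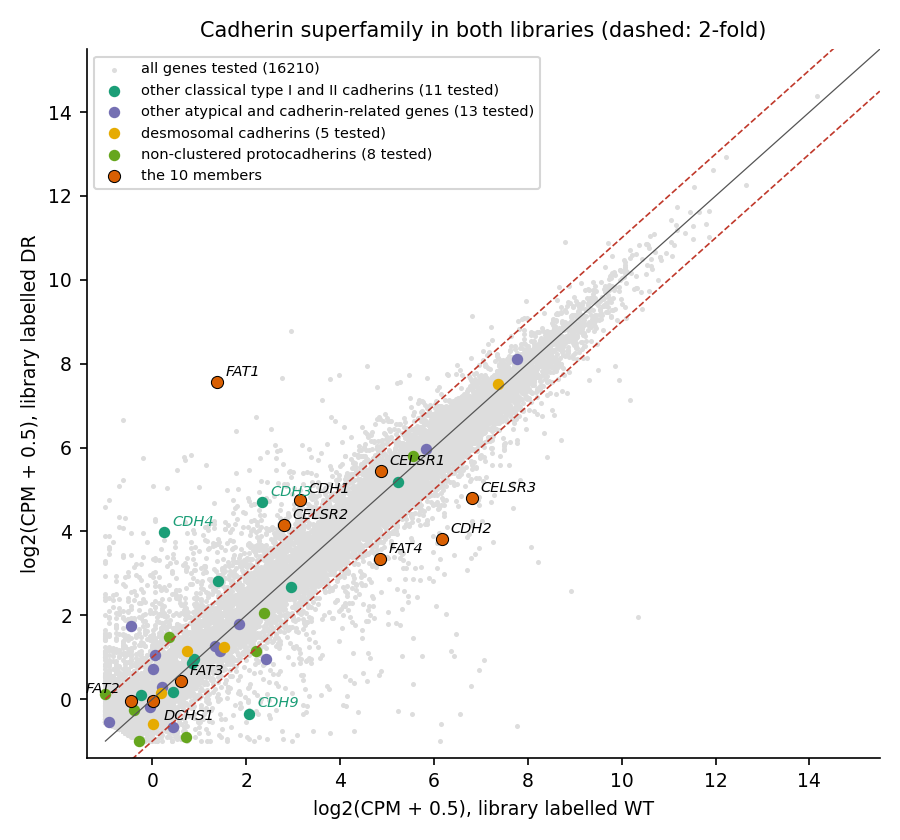
Level in the WT-labelled library (x) and in the DR-labelled library (y), both as log2(CPM + 0.5), for the 10 members (orange), the 4 lists of other cadherins (coloured) and all 16210 genes tested (grey), with dashed lines at 2-fold. FAT1 stands far above the diagonal with CDH4, CDH3 and CDH1 on the same side, and CDH2, CELSR3, FAT4 and CDH9 lie below it.

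Catenins link classical cadherins to the cytoskeleton. Of 13 catenin and plakophilin genes tested, 3 were higher and 1 was lower in the DR-labelled library, with a median log2 fold change of 0.46. The shares over all genes tested were 7.48% higher and 4.16% lower. The core catenins were within 2-fold. CTNNA1 had 254 and 167 CPM (log2 fold change 0.61), CTNNB1 125 and 172 CPM (-0.46), JUP 183 and 133 CPM (0.46) and CTNND1 8.68 and 13.9 CPM (-0.65). PKP2, a plakophilin of desmosomes, was the 1 gene lower past 2-fold, with 111 and 291 CPM (-1.38). PKP3 was higher at a low level, with 119 and 19 reads (1.34). The 14 genes of the list with counts summed to 889 CPM in the DR-labelled and 1024 CPM in the WT-labelled library.

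Of 13 genes listed as partners of FAT and Dachsous proteins, 0 were higher and 2 lower past 2-fold in the DR-labelled library. The shares over all genes tested were 7.48% higher and 4.16% lower. The 2 partners were the Ena/VASP actin regulators EVL (9.79 and 38.5 CPM, log2 fold change -1.92) and ENAH (13.2 and 45.5 CPM, -1.75), whose family binds the FAT1 tail. Both were lower in the library in which FAT1 was higher. The third gene of that family, VASP, had 53.8 and 52.1 CPM (0.04) and was named after its value was seen.

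Of 13 planar polarity partners of CELSR proteins, 2 were higher and 1 was lower, against 7.48% and 4.16% of all genes tested. ANKRD6 (Diversin) had 299 and 13 reads (2.75), PRICKLE2 had 547 and 97 reads (1.66), and the Frizzled receptor FZD6 had 808 and 1120 reads (-1.12). Other genes of the list, VANGL1, FZD3, DVL1, DVL2 and DVL3, were within 2-fold, between -0.55 and 0.47. They were named after their values were seen. In all, 10 of the 13 lay within 2-fold.

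Of 10 enzymes that shed or cleave cadherins, 0 were higher and 1 was lower, against 7.48% and 4.16% of all genes tested. PSEN2, a catalytic subunit of gamma-secretase, had 23.4 and 50.3 CPM (-1.09). ADAM10, the main sheddase of E- and N-cadherin, had 321 and 198 CPM (0.70) and was named after its value was seen. Of 7 repressors of CDH1 transcription, 1 was higher and 1 was lower, to be read beside the same shares of all genes. SNAI1 had 147 and 34 reads (1.09), and KLF8 had 300 and 427 reads (-1.11). ZEB1, named after its value was seen, had 22.8 CPM in the DR-labelled and 42.3 CPM in the WT-labelled library (-0.88), under the 2-fold limit. The other 5 of the 7 lay within 2-fold.

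**Figure D5:**
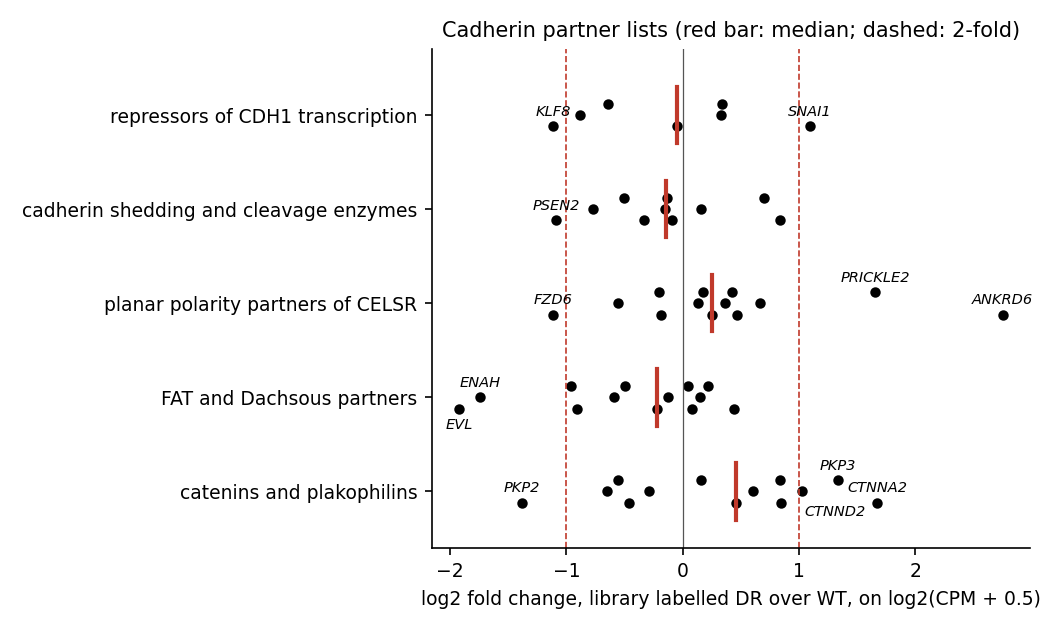
log2 fold change on log2(CPM + 0.5), DR-labelled over WT-labelled (x), of each tested gene in 5 lists of cadherin partners, with the median of each list as a red bar and dashed lines at 2-fold. Most genes lie within 2-fold, with ANKRD6 at 2.75 and EVL at -1.92 the farthest on either side.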

How the data were processed

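RNA of 2 libraries, 1 per label, was sequenced. The authors deposited estimated counts per gene with no scaling for library size, and the submitters' processing notes name Bowtie 0.12.2 and hg19 with no role. The counting tool and annotation are not given in the sources used here. Of 18930 genes, 663 had no count, and estimated counts were fractional for 9108 genes and were rounded. Columns with the authors' own log2 ratio, p-value, q-value and direction were not used. The NCBI Gene IDs of 18583 genes matched RefSeq, and NSD2 was found this way under an older symbol.

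Library sizes were scaled by TMM in edgeR 4.0.16 (R 4.3.3; factors 1.01 and 0.988). The 2057 genes under 10 reads in total were left out, and 0.5 CPM was added before log2. Without replicates a quasi-likelihood fit in edgeR has no residual spread, and no p-value was computed. Past 2-fold means 1 or more on the log2 scale, in either direction. Intervals came from SciPy 1.17.1, Clopper-Pearson for fold changes and exact Poisson for levels. Reads carry no molecular identifiers, so intervals cover counting error only. The fold and interval steps were checked on simulated data. Of the listed genes, CDH5, CDH10, TWIST2, TYR and S100B were not analysed here. CDH20, DSG4 and the fibroblast markers DCN, LUM and POSTN had no count.

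The members and lists were chosen with earlier results of these data known, and lists came from general knowledge. Besides the members, the text names up to 3 genes per list and direction past 2-fold with a mean of at least 1 CPM (otherwise the 2 most abundant), the core catenins, FGFR3, NSD2 and the 5 genes nearest FAT1 and CDH2. Marker genes named are examples of their lists. Alternatives were DESeq2 1.42.0 size factors, library totals, other filters, pseudocounts and thresholds, counts not rounded, and TPM (length-normalized shares of all transcripts).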

Additional observations from a re-analysis of the deposited data

How the results depend on the processing

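No paired analysis was possible because there was 1 library per label, and for the same reason no replicate could be left out. Leaving out the filter or raising it to 50 reads could not change the members past 2-fold. All members had passed the filter, and those past 2-fold each had more than 50 reads. The members past 2-fold (3 higher, 3 lower) stayed the same in number under both other scalings (DESeq2, totals), with 0.1 CPM as pseudocount and with unrounded counts. Adding 5 CPM instead left 2 higher, since CELSR2 went to 0.95, and took FAT1 to 4.76 and CDH2 to -2.03. A log2 threshold of 2 left 3 members, 1 higher and 2 lower. The genes of the other lists past 2-fold, 25 in all with FGFR3 and NSD2 and without marker lists, numbered 7 when 5 CPM was added and 6 at the log2 threshold of 2. The added CPM shrinks the fold changes of low genes, while the higher threshold asks more of every gene. Over all genes tested, 1212 were higher and 674 lower, against 423 and 333 when 5 CPM was added and 339 and 189 at the higher threshold. In all 3 families the leading member differed between libraries. Other scalings or TPM could not change this, since each divides all genes of a library by 1 number. Depth limited FAT2, FAT3 and DCHS1, whose intervals included 0.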
